A study of Mus musculus with 76 samples.

Results

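The loci described here are the annotated hairpin genes of microRNAs in mouse fetal liver at embryonic day 14.5. A locus was taken when its GENCODE M21 symbol begins with Mir and a digit or with Mirlet7, does not end in hg, and has at least 100 reads summed over 76 libraries. Mir144 and Mir451a were left out. By this rule 149 loci were kept of 1180 microRNA symbols and of 49585 genes in the count tables, and 651 of the 1180 symbols had at least 1 read. The loci were thus selected on their summed read counts, and their abundance is given as a description. Mir5710 with 106 reads, Mir3075 with 105, Mir335 with 103 and Mir7017 and Mir1967 with 101 each lay just inside the minimum. Mir7578, Mir7031 and Mir6921 with 99 reads each and Mir1905 and Mir744 with 97 each lay just outside. The minimum was passed on the wild-type libraries alone by 67 loci and on the knockout libraries alone by 80.

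The study asked which coding and non-coding transcripts depend on 2 nucleases of the RNA exosome, DIS3 and EXOSC10, as red cells mature. RNA of C57BL/6NJ embryos was sequenced as stranded total RNA after removal of ribosomal RNA. The groups are WT and dis3 KO embryos of a DIS3 line, and WT and exs10 KO embryos of an EXOSC10 line, all of embryonic day 14.5. Each group was profiled as total fetal liver and as the fractions S0, S1, S2, S3 and S4+S5, which cell sorting on CD71 and Ter119 ordered from the least to the most mature erythroid cells. The labels give neither the knockout allele nor a Cre driver, and they do not say whether replicates are separate animals, so p-values measure the spread between these samples, which may be technical. After near-identical libraries were summed, the DIS3 line kept 4 WT and 2 KO samples of total liver, the EXOSC10 line 3 of each genotype, and every sorted group had 2 samples.

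A microRNA is cut from a long primary transcript. Drosha with its partner Dgcr8 releases the hairpin in the nucleus, Xpo5 exports it, Dicer1 cuts it to a short duplex, and one strand guides an Argonaute protein to messenger RNAs through its seed, the bases 2 to 8 of the mature strand. Dis3 and Exosc10 carry the nuclease activity of the nuclear RNA exosome, a complex that trims and degrades many nuclear transcripts. Libraries of this kind do not capture mature microRNAs well, and a read over a hairpin can come from the primary transcript, the hairpin or the intron around it, so every level below is that of RNA over the locus.

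Mature sequences from RefSeq (GRCm38.p6) matched 130 of the 149 loci, with 227 mature strands and 215 different seeds. Capitals mark the seed. The first lines are strands of the chromosome 12 cluster, which holds most of the loci called in total liver, and include pairs that share a seed.
miR-127-3p: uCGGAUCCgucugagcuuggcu
miR-434-3p: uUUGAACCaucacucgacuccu
miR-341-3p: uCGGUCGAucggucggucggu
miR-323-3p: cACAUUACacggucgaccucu
miR-494-3p: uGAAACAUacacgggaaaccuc
miR-453: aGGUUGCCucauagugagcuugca
miR-496a-5p: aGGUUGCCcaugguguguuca
miR-1197-5p: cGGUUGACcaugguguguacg
miR-758-5p: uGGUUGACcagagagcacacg
The next lines belong to loci outside the cluster that differed between KO and WT or along the sort.
miR-34a-5p: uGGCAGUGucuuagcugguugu
miR-142a-5p: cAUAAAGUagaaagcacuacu
miR-142a-3p: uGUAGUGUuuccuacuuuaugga
miR-335-5p: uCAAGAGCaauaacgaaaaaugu
miR-483-3p: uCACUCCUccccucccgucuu
miR-8116: aAGGAUCCggggcuaguuggc
miR-763: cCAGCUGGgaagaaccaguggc
miR-1962: aGAGGCUGgcacugggacacau
Members of 2 families with a common seed were also among the loci, let-7 with 3 and miR-15 with Mir15a, Mir15b and Mir322, and their matched strands are shown.
let-7a-5p: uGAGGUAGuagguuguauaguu
let-7f-5p: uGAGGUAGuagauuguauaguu
miR-98-5p: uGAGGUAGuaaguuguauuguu
miR-15b-5p: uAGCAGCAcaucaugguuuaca
miR-322-5p: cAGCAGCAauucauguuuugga
In all, 10 seeds were shared by loci. Mir453 and Mir496a share GGUUGCC and Mir1197 and Mir758 share GGUUGAC, and all of these lie in the chromosome 12 cluster.

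By annotation, 96 of the 149 loci lay in an intron of a coding gene on the same strand and 10 in an intron of another same-strand gene. A further 32 lay in no other gene, 6 were overlapped only by a gene on the opposite strand, and 5 lay in an exon. The imprinted region of chromosome 12 from the start of Meg3 to the end of Mirg (chr12:109541001-109749460, GRCm38) held 32 of the loci, which are read from a shared long transcript and are therefore not independent of each other. Mir127, Mir431, Mir432, Mir433 and Mir434 lie there opposite Rtl1, and neither the labels nor the file headers say whether strand was used in counting, so reads from these loci and from Rtl1 cannot be told apart with certainty.

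Another 34 loci ended exactly at the 3' splice site of their host intron. RefSeq hairpins matched 132 loci, 2 of them without a mature strand. Of the loci at a splice site 32 had one, and 32 of the 32 ended in AG, the last bases of an intron, which follows from how they were chosen. None of the 30 cluster hairpins did, and 8 of the other 70 did. Of the mature strands of the loci at a splice site, 23 reached the end of the locus, and 23 of the 23 ended in AG, which follows in the same way. In the examples below the capitals mark the last bases of the strand.
miR-7063-3p: ugcucucugccccucuuaAG
miR-7001-3p: cgcucacacucccucugcAG
miR-7073-3p: auagccuuuuccuccccaacAG
miR-7089-3p: ucagugucugcugucuccacAG
Their hairpins had a median GC content of 56.8%, against 52.1% in the cluster and 48.1% in the remaining loci.

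Reads were few at most loci. Mir6236 held 528792 of the 578164 reads (91.5%), and the other 148 loci held 49372, with a median of 191 and a maximum of 5675 at Mir1957a. Mir5125, in the splicing factor gene Srrm2, followed with 3746 reads, Mir703 with 1703, Mir8091 with 1682 and Mir8116 with 1277. Libraries held 4.66 M to 30.41 M reads, with a median of 12.71 M. The predicted genes Gm26917 and Gm42418 took 5.26% to 61.4% of a library. A locus was tested in a comparison when it passed edgeR's filter on low counts. In the 12 comparisons of KO with WT, 89 loci passed at least once and 60 never did, and 51 were called at least once at an adjusted p under 0.05 (edgeR's quasi-likelihood test). Levels are given in CPM, which sets each count against the size of its library, scaled by TMM within each comparison. The labels of the knockouts were checked first. Exosc10 was lower in exs10 KO in all 6 sample types, by 0.44 (S3) to 1.90 (S0) on the log2 scale. Dis3 was called lower in dis3 KO in S0 (-0.95), S1 (-0.66), S2 (-0.73) and S3 (-0.31), and it was not called in S4+S5 (-0.68) or in total liver, where the samples overlapped (-0.25, adjusted p = 0.245). Summed erythroid markers in WT rose from 254 to 347 CPM in S0 to 42850 to 52362 CPM in S4+S5 over both lines.

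The cluster on chromosome 12 was higher in total liver of both knockouts. Its 32 loci summed to 11.2, 12.9, 14.0 and 14.3 CPM in the WT samples of the DIS3 line and to 25.0 and 38.2 CPM in the dis3 KO samples. In the EXOSC10 line they summed to 23.3, 24.7 and 25.0 CPM in WT and to 64.3, 65.4 and 74.2 CPM in exs10 KO. In both lines every KO sample lay above every WT sample. The 116 loci outside the cluster, without Mir6236, overlapped between genotypes in both lines, at 18.5 to 24.8 CPM in WT against 19.1 to 23.0 CPM in KO of the DIS3 line and at 23.8 to 25.9 CPM and 24.2 to 31.5 CPM in the EXOSC10 line. The sum needs no filter on low counts, but the minimum of 100 reads leans on the KO libraries, since 10 of the 32 cluster loci reach it on WT reads alone and 27 reach 50. The 28 microRNA symbols of the same region that missed the minimum, which the rule did not select, summed to 0.835 to 1.76 CPM in WT against 2.07 and 2.78 CPM in KO of the DIS3 line, and to 2.46 to 2.68 CPM in WT against 4.89 to 5.79 CPM in KO of the EXOSC10 line, again without overlap.

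**Figure D1:**
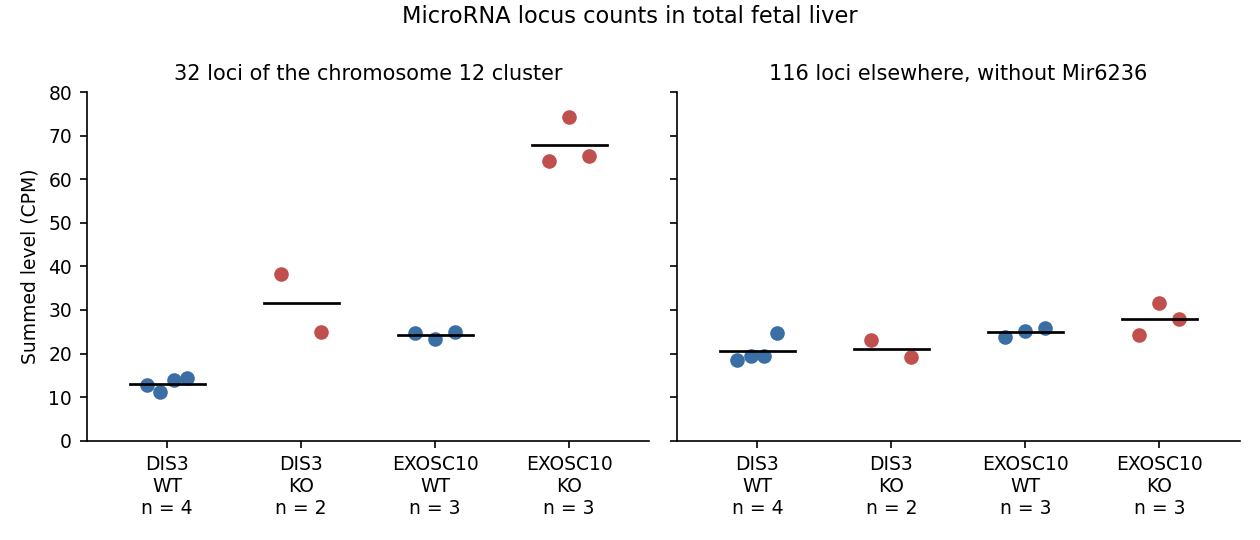
Summed level in total liver (CPM, linear axis from 0) of the 32 loci of the chromosome 12 cluster (left) and of 116 loci elsewhere without Mir6236 (right), by line and genotype; each point is 1 sample and the bar is the group mean. On the left the KO samples, at 25.0 to 74.2 CPM, lie above the WT samples of their own line, and on the right WT and KO overlap.

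Single cluster loci moved in the same direction. In dis3 KO, 29 of the 32 passed the filter and 22 were called higher, with none lower, where 26.5% of all 17553 genes tested were called higher and 24.2% lower. The 29 log2 differences ran from 0.48 (Mir323) to 2.39 (Mir434), with a median of 1.27 against 0.028 over all genes. Of these loci 12 passed only through their KO samples, which selects for a higher level in KO, and 10 of the 12 were called higher. Among the 17 that passed in both genotypes 12 were called higher, with a median of 1.10. In exs10 KO all 32 cluster loci passed and 32 were called higher, from 1.04 (Mir434) to 1.94 (Mir666), against 31.4% called higher and 31.0% lower of 16771 genes. Of these, 19 passed in both genotypes and 19 were called higher, with a median of 1.44. Leaving out 1 dis3 KO sample (replicates 1 and 3 summed) brought the loci called higher in DIS3 total liver, inside and outside the cluster, from 25 to 9, and DESeq2 called 12.

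Mir127, the best known microRNA opposite Rtl1, stood at 0.575, 0.593, 0.731 and 1.10 CPM in DIS3 WT and at 1.53 and 1.98 CPM in dis3 KO. Its EXOSC10 levels were 1.26, 1.32 and 1.46 CPM in WT against 3.55, 4.05 and 4.36 CPM in KO. The genotypes did not overlap in either line, and the log2 differences were 1.35 (SE 0.29, adjusted p = 0.00127) and 1.55 (SE 0.17, adjusted p = 8.23e-06). Mir434, its neighbour, had 0, 2, 4 and 3 reads in DIS3 WT, or 0 to 0.246 CPM, and 0.516 and 0.864 CPM in dis3 KO (log2 2.39, SE 0.52, adjusted p = 0.0014). In the DIS3 line Mir434 passed the filter only through its KO samples. Mir434 measured in the EXOSC10 line 0.493, 0.681 and 0.709 CPM in WT against 0.973, 1.14 and 1.57 CPM in KO, a log2 difference of 1.04 (SE 0.29, adjusted p = 0.0071), and without WT replicates 3 and 4 this call was lost. Both loci were higher in each knockout.

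The other cluster loci with the largest called differences behaved alike. In dis3 KO, Mir337 stood at 0.164 to 0.439 CPM in WT against 0.696 and 0.969 CPM in KO (log2 1.94, SE 0.41, adjusted p = 0.00117), and Mir453 at 0.410 to 1.76 CPM and 2.20 and 3.01 CPM (log2 1.61, adjusted p = 0.000583). Mir341 and Mir496a gave log2 differences of 1.59 and 1.76 there, and 1.42 and 1.71 in exs10 KO. Mir496a passed the filter in both lines only through its KO samples. In exs10 KO, Mir494 stood at 0.451, 0.506 and 0.733 CPM in WT against 1.61, 2.11 and 2.22 CPM in KO (log2 1.90, SE 0.26, adjusted p = 4.38e-05). Mir432 and Mir376c, with log2 differences of 1.80 and 1.75 in exs10 KO, passed the filter there only through the KO samples. None of these groups overlapped between genotypes, but these loci were named partly for that, so it is no separate result.

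Mir666 and Mir323 were called in exs10 KO and not in dis3 KO. Mir666 stood at 0.576, 0.579 and 0.608 CPM in EXOSC10 WT and at 2.14, 2.31 and 2.33 CPM in exs10 KO, a log2 difference of 1.94 (SE 0.22, adjusted p = 7.59e-06). In the DIS3 line it stood at 0.348 to 0.878 CPM in WT against 0.632 and 0.831 CPM in KO, with overlap (log2 0.52, SE 0.37, adjusted p = 0.256). The difference between the lines was itself tested as an interaction and was not called at Mir666 (-1.40, adjusted p = 0.11) or Mir323 (-1.39, adjusted p = 0.191), nor at Mir434 (1.38, adjusted p = 0.323). Over the 32 cluster loci the difference between the lines had a median of -0.14 and 3 had an unadjusted p under 0.05. None of them was called.

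**Figure D2:**
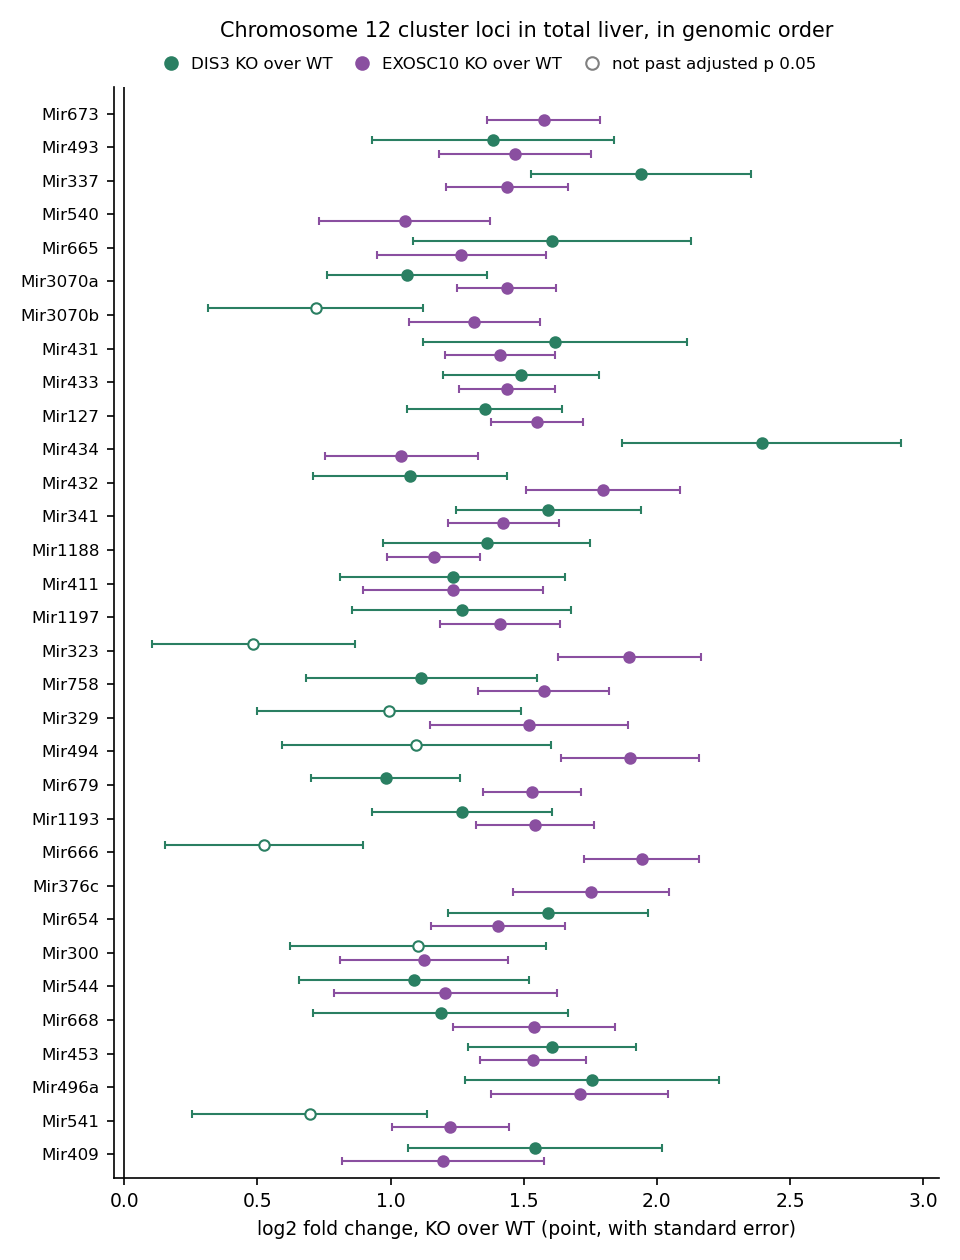
Log2 fold change, KO over WT, of the chromosome 12 cluster loci in total liver, in genomic order from Mir673 to Mir409, with its standard error; green is the DIS3 line, purple the EXOSC10 line, and open symbols did not pass an adjusted p of 0.05. The estimates lie above 0 at the loci tested, between 0.48 and 2.39; Mir376c, Mir540 and Mir673 were not tested in the DIS3 line.

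The long transcripts of the same region moved with the microRNA loci. Meg3, a long non-coding RNA at its start, rose by 0.96 (SE 0.15) in dis3 KO and by 1.18 (SE 0.09) in exs10 KO on the log2 scale. Rian, which also hosts small nucleolar RNAs, rose by 1.25 and 1.40, and Mirg, the host of the microRNA array at the far end, by 1.32 (SE 0.11) and 1.56 (SE 0.07). Mirg stood at 57.0, 64.7, 69.5 and 76.6 CPM in DIS3 WT against 149 and 184 CPM in dis3 KO, and at 72.5, 81.2 and 83.3 CPM against 225, 237 and 239 CPM in the EXOSC10 line. The protein-coding genes Dlk1, a neighbour of Meg3, and Rtl1 rose as well, by 0.95 and 1.15 and by 1.23 and 0.98. The 5 transcripts did not overlap between genotypes in either line.

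In these bulk samples fewer cells of a type and less RNA per cell cannot be told apart. Summed markers of several cell types differed between genotypes. The 8 hepatocyte markers were called higher, 8 of 8 in each line, and summed to 49039 to 55749 CPM in DIS3 WT and 109438 and 115223 CPM in dis3 KO, and to 34000 to 42921 CPM and 60487 to 81722 CPM in the EXOSC10 line. Their median log2 difference was 1.09 and 0.82, beside 1.27 and 1.44 for the cluster loci tested. Mesenchymal markers were called higher at 3 of 6 and 6 of 6, and summed to 814 to 964 CPM in WT against 1316 and 1528 CPM in KO of the DIS3 line and to 933 to 1195 CPM and 2147 to 2605 CPM in the EXOSC10 line. Summed erythroid markers went the other way, from 14622 to 17117 CPM in WT to 6729 and 8833 CPM in dis3 KO and from 10596 to 11527 CPM to 4206 to 5601 CPM in exs10 KO. The part of these marker differences in the rise of the cluster was not tested. In the sorted populations of both lines together the 32 loci held 6 reads in WT and 45 in KO, against 3025 and 7124 in total liver, and no cluster locus passed the filter in any of them. Of the 45 reads, 20 were in 1 exs10 KO S0 sample (replicates 2 and 3 summed), in which the hepatocyte markers summed to 995 CPM, against 66.7 CPM in the other KO sample of that group.

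Outside the cluster, 3 of the 15 loci tested in DIS3 total liver were called higher and 3 lower, and 3 of the 14 in EXOSC10 total liver higher and 1 lower, each a smaller share than that of all genes in the same direction. The higher ones were Mir122 and Mir483 in both lines, Mir335 in dis3 KO and Mir717 in exs10 KO. Mir122, the main microRNA of hepatocytes, stood at 0.174, 0.220, 0.328 and 0.395 CPM in DIS3 WT and at 1.06 and 2.09 CPM in dis3 KO, a log2 difference of 2.45 (SE 0.41, adjusted p = 0.000148). EXOSC10 samples gave 0.253, 0.314 and 0.365 CPM in WT against 0.592, 0.957 and 1.07 CPM in KO (log2 1.38, SE 0.34, adjusted p = 0.00342). It was higher in every KO sample, but passed the filter in both lines only through those samples, and it had no read in any sorted population. The hepatocyte markers given above rose in the same samples, and their part in the rise of Mir122 was not tested.

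Mir483, in an intron of the imprinted growth factor gene Igf2, stood at 0.553 to 0.905 CPM in DIS3 WT and at 1.03 and 1.88 CPM in dis3 KO (log2 1.03, SE 0.33, adjusted p = 0.0177). The EXOSC10 samples measured 0.471, 0.622 and 0.911 CPM in WT against 1.61, 2.07 and 2.26 CPM in KO (log2 1.6, SE 0.26, adjusted p = 0.000178). Igf2 rose by 0.93 and 0.98. The DIS3 call at Mir483 was lost with DESeq2 and without WT replicate 3 or KO replicates 1 and 3. Mir335, in the imprinted gene Mest, had 0, 0, 3 and 5 reads in DIS3 WT and 16 and 27 in dis3 KO (log2 2.02, SE 0.60, adjusted p = 0.0106, lost with DESeq2), and Mest rose by 0.55. Mir717, in the heparan sulphate proteoglycan gene Gpc3, stood at 0.300, 0.405 and 0.524 CPM in EXOSC10 WT and at 1.07, 1.27 and 1.31 CPM in KO (log2 1.67, SE 0.29, adjusted p = 0.000285), and Gpc3 rose by 0.97. Mir335 and Mir717 passed the filter in these comparisons only through their KO samples. In each of these called comparisons the KO samples lay above the WT samples, but lack of overlap was a condition for naming Mir335 and Mir717.

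Few loci fell in total liver. Mir8116, in an intron of the acetylcholinesterase gene Ache, stood at 1.40, 1.54, 1.88 and 2.63 CPM in DIS3 WT and at 0.472 and 0.885 CPM in dis3 KO (log2 -1.35, SE 0.33, adjusted p = 0.0031). Samples of the EXOSC10 line measured 1.52, 1.52 and 1.80 CPM in WT against 0.381, 0.566 and 0.603 CPM in KO (log2 -1.69, SE 0.26, adjusted p = 0.00012), where it passed the filter only through its WT samples. It was lower in every KO sample, beside the lower erythroid markers, and Ache fell by 1.45 and 1.00. Mir6951, in the antizyme inhibitor gene Azin1, was called lower in dis3 KO (log2 -1.71, SE 0.63, adjusted p = 0.0342) with overlap between genotypes, and passed only through its WT samples. The third locus called lower in dis3 KO was Mir6236, described with the differences between the lines.

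In the sorted populations few loci passed the filter and fewer were called. In dis3 KO, 4 of 31 were called higher and 1 lower in S0, against 18.0% and 13.0% of all genes. Those 4 were among 12 that passed the filter only through their KO samples, and the lower one among 5 that passed only through their WT samples. Such passing selects for a difference in that direction. None of the 9 that passed in both genotypes was called. In S1 none of 16 was called higher and 1 lower, against 20.6% and 19.4%. In S2 none of 19 was called, against 10.3% higher and 4.80% lower, with 4 at an unadjusted p under 0.05 and none by DESeq2. In S3, 2 of 24 were called higher and 2 lower, against 16.3% and 15.9%, and in S4+S5, 5 of 11 were called higher and 1 lower, against 23.4% and 23.7%. Of those 5, Mir142, Mir486 and Mir703 passed only through their KO samples. In exs10 KO none of 16 was called in S0 (8.84% higher and 4.63% lower of all genes, 3 at an unadjusted p under 0.05, none by DESeq2) and none of 14 in S1 (15.2% and 15.5%, 1 at an unadjusted p under 0.05, none by DESeq2). In S2, 1 of 12 was called lower and none higher (11.6% higher and 9.86% lower of all genes), in S3, 1 of 21 was called higher and none lower (16.8% and 17.2%), and in S4+S5, 2 of 21 were called higher and none lower (7.63% and 7.52%). In S0 to S3 of both lines the share of loci called was below that of all genes in each direction. Leaving out 1 sample moved most of these counts, from 4 to 1 higher in DIS3 S0 without either WT sample, from 5 to 2 higher in DIS3 S4+S5 without WT or KO replicates 1 and 3, and from 2 to 10 higher in EXOSC10 S4+S5 without KO replicates 2 and 3.

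Mir34a was read almost only in KO libraries, mostly of dis3 KO. This locus of chromosome 4 (chr4:150068454-150068555, GRCm38) encodes a microRNA whose transcription p53 activates and which restrains cell cycle genes. Of its 116 reads over all libraries 114 were in KO libraries. Mir34a thus met the minimum of summed reads only through the KO libraries, which selects for a higher level in KO. In DIS3 S0 it had 0 and 1 reads in the WT samples and 5 and 13 in the KO samples, or 0 and 0.0487 CPM against 0.495 and 0.486 CPM. The ratio of KO to WT there was 18.7, with a 95% counting interval of 2.95 to 778, and the fit, which the locus entered only through its KO samples, called it higher (log2 3.92, SE 1.21, adjusted p = 0.0303), but not with DESeq2, without the filter on low counts or without WT replicate 2. In S1, S2, S3 and S4+S5 the DIS3 WT samples had 0 reads and the KO groups 19, 28, 10 and 19. Against a floor of 3 reads over the WT group, the KO level was at least 6.11, 11.9, 3.94 and 5.59 times higher. Every dis3 KO sample of these populations was above 0 and every WT sample at 0, but the locus did not pass the filter there and was not tested. In exs10 KO the locus had 0 to 7 reads a population, in total 14 in the sorted populations against 94 in dis3 KO, and in S4+S5 it lay above 0 in 1 of the 2 samples. The interaction between the lines gave no usable error at this locus in S4+S5 and was not fitted in the other sample types, so these read numbers were not tested between the lines. Cdkn1a, the cell cycle inhibitor that is a classical p53 target, rose in all 6 sample types of both lines, by 4.24 to 7.01 in dis3 KO and 4.09 to 6.23 in exs10 KO on the log2 scale. The part of p53 in the reads at Mir34a was not tested.

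Mir142, a microRNA of blood cells on chromosome 11, was called higher in 2 of the 5 sorted populations of dis3 KO, S3 and S4+S5, and its host transcript Mir142hg in all 5. In DIS3 S4+S5 it had 0 and 1 reads in WT and 17 and 81 in KO, or 0 and 0.0725 CPM against 2.48 and 4.55 CPM. The ratio was 86.4, with a counting interval of 15.2 to 3448, and the log2 difference was 6.01 (SE 0.91, adjusted p = 2.33e-05), with the filter passed only through the KO samples. In S3 it had 0 and 4 reads in WT and 8 and 16 in KO (log2 2.78, SE 0.79, adjusted p = 0.0166), again passing through the KO samples alone. The S3 call at Mir142 was lost with DESeq2, in a single fit of all sorted samples and without WT replicate 2. In S0 it was tested and not called (log2 1.5, SE 0.71, adjusted p = 0.137), and in S2, with 4 reads in WT and 38 in KO, it was not tested. In S1 it stood at 0.201 and 0.284 CPM in WT against 0.559 and 0.804 CPM in KO and was not called (log2 1.57, SE 0.60, adjusted p = 0.0581). The genotypes did not overlap in any of the 5 sorted populations of the DIS3 line.

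Mir142hg was called higher in those 5 populations, by 2.62 in S0, 3.36 in S1, 4.08 in S2, 2.77 in S3 and 4.35 in S4+S5. In DIS3 total liver Mir142 had 2 reads in WT and 7 in KO and was not tested. Mir142hg was not called there, with overlap (0.26, adjusted p = 0.275). In S4+S5 Mir142hg stood at 4.76 and 6.46 CPM in DIS3 WT and at 105 and 129 CPM in dis3 KO. In exs10 KO it was called lower in total liver (-0.86) and higher in S4+S5 (1.19). Mir142 itself had 36 reads in the sorted WT samples of that line and 37 in its KO samples and passed the filter in none. The interaction between the lines at Mir142 in S4+S5 was 6.06 (SE 1.78, adjusted p = 0.0633) and was not called. Markers of other blood cells moved in both directions. Of 6 megakaryocyte markers 3 were called higher in DIS3 S4+S5 (Gp9, Vwf and Itga2b) and 2 lower, and in S0 5 of 6 were called higher. Of the 5 granulocyte markers tested in DIS3 S3, S100a8 and S100a9 were called higher and Prtn3 and Mpo lower. In DIS3 S4+S5 the macrophage markers were called lower, 8 of 8, from 231 and 314 CPM summed in WT to 19.1 and 35.5 CPM in KO, and granulocyte markers fell at 6 of 6 and B cell markers at 5 of the 7 tested. The part of these cells in the levels of Mir142 was not tested.

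**Figure D3:**
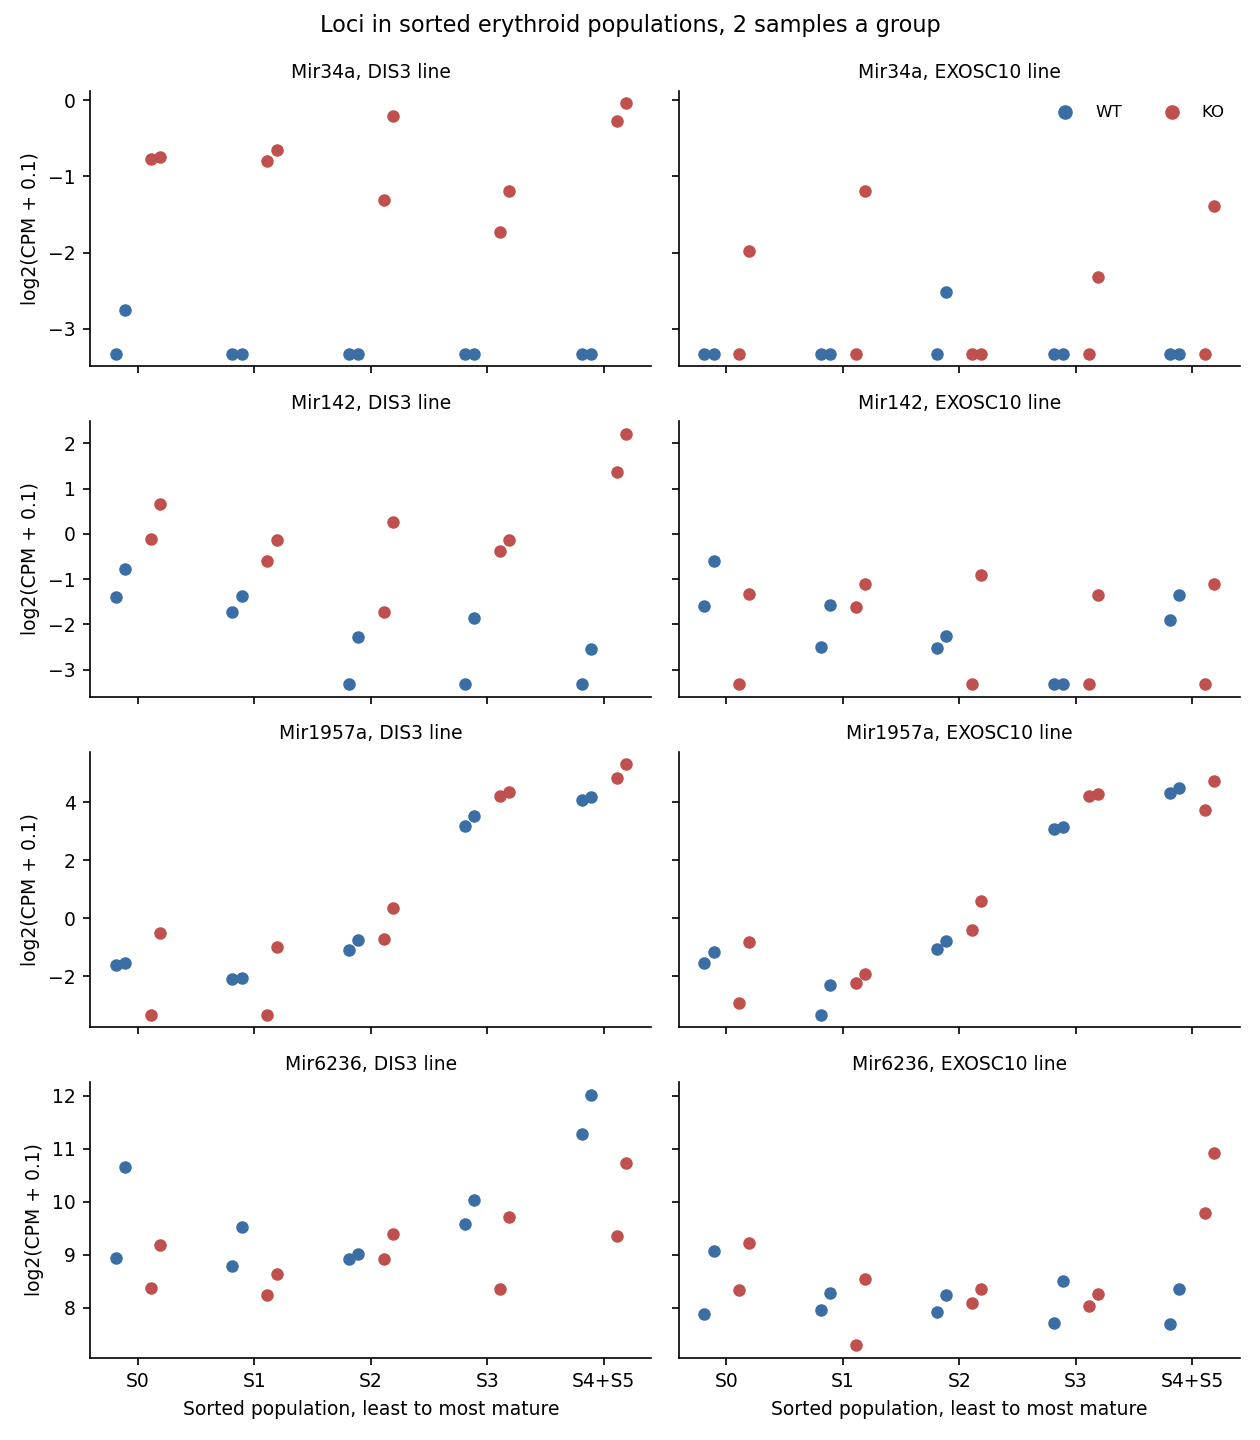
Level of Mir34a, Mir142, Mir1957a and Mir6236, as log2 of CPM plus 0.1, in the sorted populations of the DIS3 line (left) and the EXOSC10 line (right); each point is 1 sample, blue is WT and red KO, and points at -3.3 are samples with no read. Mir34a and Mir142 lie higher in dis3 KO than in WT in each population, and Mir6236 is lower in dis3 KO and higher in exs10 KO in S4+S5.

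Mir1957a, in an intron of the glucose transporter gene Slc2a1 (chr4:119129779-119129844), rose in late cells of both knockouts. In S3 it stood at 8.98 and 11.4 CPM in DIS3 WT and 18.6 and 20.1 CPM in dis3 KO (log2 0.92, SE 0.14, adjusted p = 0.000273, lost in a single fit of all sorted samples), and at 8.34 and 8.81 CPM in EXOSC10 WT and 18.6 and 19.2 CPM in exs10 KO (log2 1.15, SE 0.12, adjusted p = 1.31e-05). In DIS3 S4+S5 it stood at 16.8 and 18.2 CPM in WT against 28.4 and 39.5 CPM in KO (log2 0.97, SE 0.21, adjusted p = 0.000734, lost without KO replicates 1 and 3). The genotypes did not overlap in any of the 3, and Slc2a1 rose as well, by 0.73, 0.56 and 0.49. Mir1957a was not called in EXOSC10 S4+S5, where the samples overlapped (-0.06, adjusted p = 0.938), or in total liver of the DIS3 line (-0.42, adjusted p = 0.189).

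In DIS3 S4+S5, Mir486, a microRNA of red cells in the ankyrin gene Ank1, had 4 and 2 reads in WT and 51 and 7 in KO (log2 2.87, SE 0.77, adjusted p = 0.00461), where Ank1 rose by 0.33. Mir703, which lies opposite the gene Cfap299, stood at 0.435 and 0.501 CPM in WT against 1.80 and 3.49 CPM in KO (log2 2.43, SE 0.68, adjusted p = 0.00619), and without the strand setting its reads and those of Cfap299 cannot be told apart with certainty. Mir486 and Mir703 passed the filter only through their KO samples, and both calls were lost without WT replicates 1 and 3. Mir8091, in no other gene, was higher in S4+S5 of both lines. It stood at 1.6 and 2.76 CPM in DIS3 WT and 4.51 and 4.71 CPM in dis3 KO (log2 1.13, SE 0.44, adjusted p = 0.0426), and at 1.25 and 1.66 CPM in EXOSC10 WT and 4.68 and 5.62 CPM in exs10 KO (log2 1.83, SE 0.41, adjusted p = 0.0374). The DIS3 call at Mir8091 was lost with DESeq2, in a single fit of all sorted samples, with the replicate block and without WT or KO replicates 1 and 3, and the EXOSC10 call without either WT sample.

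Other calls in sorted cells rested on few reads. In DIS3 S0, Mir1946b had 0 and 6 reads in WT and 33 and 39 in KO (log2 3.84, SE 0.93, adjusted p = 0.0096). Over the 6 sample types of that line it did not overlap between genotypes in any, but it was tested in S0 only. Over all libraries Mir1946b had 17 reads in WT and 158 in KO. It thus met the minimum of summed reads only through the KO libraries, which selects for a higher level in KO. Mir7655, in the transcription factor gene Mllt10, had 1 and 4 reads in WT and 12 and 43 in KO (log2 3.39, SE 0.79, adjusted p = 0.00774), while Mllt10 did not pass the test (-0.19). Mir1931, in the kinase gene Cdk17, had 9 and 11 reads in WT and 27 and 44 in KO (log2 2.00, SE 0.59, adjusted p = 0.0241). Mir1938, in Ifrd1, fell there from 1.24 and 2.43 CPM to 0.396 and 0.598 CPM (log2 -1.82, SE 0.62, adjusted p = 0.0467). The calls at Mir7655, Mir1931 and Mir1938 were lost without either WT sample. The call at Mir1938 was also lost with DESeq2 and in a single fit of all sorted samples.

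The remaining calls were lower ones. In DIS3 S3, Mir5134, in the cyclin gene Ccnf, fell from 0.662 and 1.22 CPM to 0.252 and 0.203 CPM (log2 -1.93, SE 0.60, adjusted p = 0.0259), and Mir8116 from 3.88 and 3.96 CPM to 2.06 and 2.23 CPM (log2 -0.88, SE 0.25, adjusted p = 0.0178), with Ache lower by 0.55. In EXOSC10 S2, Mir296 of chromosome 2, which lies in no other gene on its strand, fell from 1.17 and 1.5 CPM to 0.248 and 0.322 CPM (log2 -2.19, SE 0.58, adjusted p = 0.0315). None of these samples overlapped, which was a condition for naming Mir5134 and Mir296. Mir5134 and Mir296 passed the filter only through their WT samples. All 3 calls were lost with DESeq2 and in a single fit of all sorted samples, and each was lost without 3 of the 4 samples taken singly.

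Of the microRNA families with known roles in blood, let-7, miR-15 and miR-23a to miR-27a gave few testable values. Mirlet7a-1, Mirlet7f-1, Mir98, Mir15b, Mir27a and Mir221 passed the filter in none of the 12 comparisons of KO with WT. In the comparison of the lines Mir98 passed in S0 (0.61, adjusted p = 0.843) and Mir27a in S4+S5 (-1.79, adjusted p = 0.695), and neither was called. Mir23a stood at 0.368 CPM on average in DIS3 S0 WT and 0.955 CPM in KO and was not called (log2 1.33, SE 0.69, adjusted p = 0.171). Mir15a, in the non-coding host Dleu2, stood at 1.44 CPM on average in DIS3 S3 WT and 0.641 CPM in KO (log2 -1.10, SE 0.51, adjusted p = 0.125) and at 1.64 and 0.539 CPM in EXOSC10 S3 (log2 -1.43, SE 0.53, adjusted p = 0.0538). The genotypes did not overlap at Mir15a in S3 of either line, but the test was not passed.

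Loci and the genes that hold them were compared in the same fits. There were 176 pairs over the 12 comparisons, from 55 loci and 49 hosts. Of the 31 pairs with a called locus the host was called in the same direction in 30, and the exception was Mir7655 in DIS3 S0. In the comparisons of these pairs 13.0% to 31.4% of all genes were called in a given direction. Slc2a1, Ache, Mir142hg and Igf2 recur as hosts of a called locus over comparisons, so the 31 pairs are not independent. The 10 called loci with a measured host in DIS3 total liver and the 10 in EXOSC10 total liver include 4 and 5 in Mirg and 2 in Rian in each line, so those pairs share hosts. Per kilobase, the median locus in WT was read at 22.8% of its host's exons in DIS3 total liver and at 36.0% in EXOSC10 total liver, and the medians of the sorted populations lay between 14.5% and 77.7%. Mir1957a was read at 23.0% of Slc2a1 per kilobase in WT and 31.7% in KO in DIS3 S4+S5, at 28.1% and 42.1% in EXOSC10 S3, and at 14.6% and 14.4% in EXOSC10 total liver.

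**Figure D4:**
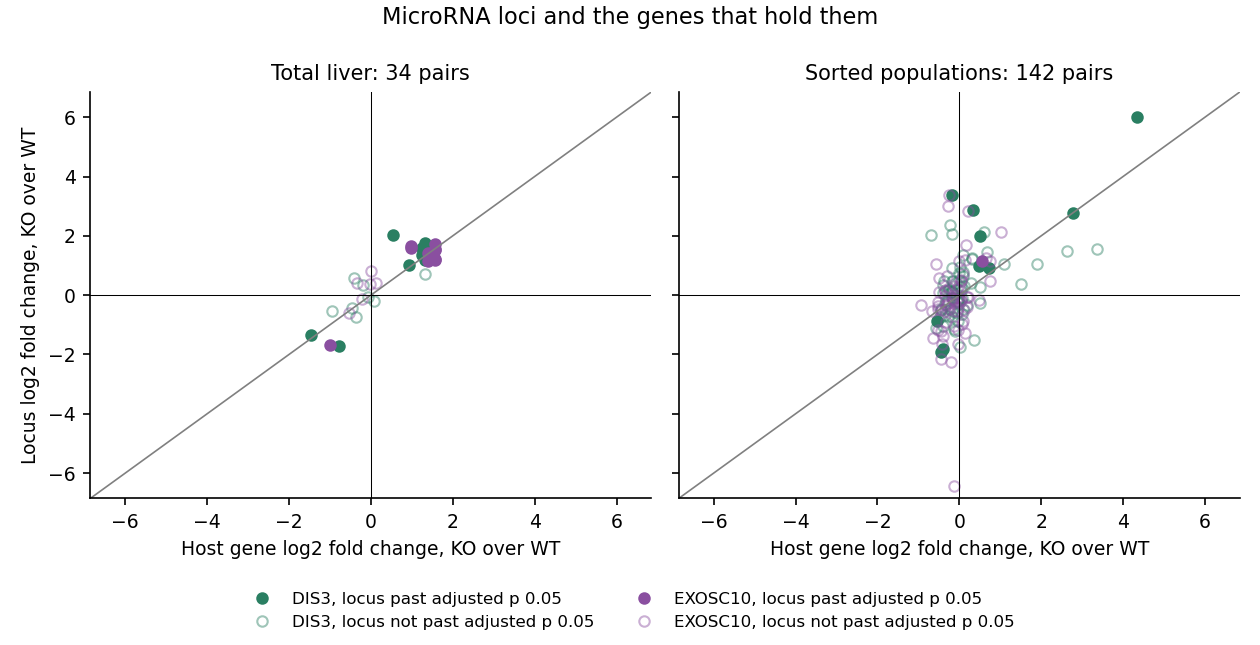
Log2 fold change, KO over WT, of each tested locus (vertical axis) against that of its host gene (horizontal axis), in total liver (left, 34 pairs) and sorted populations (right, 142 pairs); filled symbols mark loci past an adjusted p of 0.05, and the grey line marks equal change. Filled symbols lie in the quadrants of equal sign, apart from Mir7655 in DIS3 S0 at a host value of -0.19.

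Along the sort of wild-type cells the loci differed in where they were highest. In the DIS3 line 25 loci passed the filter over the 5 populations and 16 differed between them, where 88.7% of all genes did. In the EXOSC10 line 42 passed and 25 differed, where 86.4% of all genes did, and 16 loci differed in both lines. Leaving out 1 WT sample raised the DIS3 count to 20 to 26, the highest without either S2 sample or S4+S5 replicate 2. Mir1957a spanned the widest range. It stood at 0.168 and 0.182 CPM in DIS3 S0, at 10.4 and 13.2 CPM in S3 and at 25.9 and 27.3 CPM in S4+S5, a log2 difference of 7.19 between the last and the first (adjusted p = 6.65e-13 for the F test over populations). In the EXOSC10 line it went from 0.187 and 0.267 CPM to 10.2 and 10.3 CPM and 34.1 and 39.1 CPM, a log2 difference of 7.41. Its levels in S0, S1 and S2 lay between 0 and 0.492 CPM, lowest in S1 and highest in S2 among these in both lines.

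Mir8116 in Ache went from 0.0726 and 0.0842 CPM in DIS3 S0 to 4.48 and 4.59 CPM in S3 (log2 4.92 between S4+S5 and S0), and in the EXOSC10 line from 0.0891 and 0.187 CPM in S0 to 3.93 and 4.20 CPM in S4+S5 (log2 4.62). Mir15a, a regulator of haematopoietic proliferation, was highest in S3 in both lines, at 0.968 and 2.36 CPM and at 1.61 and 2.27 CPM. Mir3058 in Nudt4, Mir6951 in Azin1 and Mir7001 in Cd82 were also highest in S3 or S4+S5 in both lines, with log2 differences between S4+S5 and S0 of 3.18 to 5.92. Mir486 was tested in the EXOSC10 line only, where it rose from 0 and 0.0311 CPM in S0 to 1.35 and 2.76 CPM in S3. These WT levels were scaled apart from those of the KO comparisons.

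Some loci were highest in the least mature cells. Mir763, in the chromatin gene Hmga2, which is active in fetal progenitors, stood at 1.01 and 1.34 CPM in DIS3 S0 and at 0 CPM in S2 and S3, and at 0.933 and 1.43 CPM in EXOSC10 S0 and 0 CPM in S3 and S4+S5. Mir1962, in the phosphatase gene Ptpre, stood at 1.47 and 1.96 CPM in DIS3 S0 and at 0 CPM in S3, and at 0.901 and 1.16 CPM and 0 CPM in the EXOSC10 line. Mir1962 was read again in S4+S5, at 0.223 and 0.565 CPM and at 0.290 and 0.427 CPM. The macrophage markers, which summed to 15.9 and 17.4 CPM in DIS3 WT S3, stood at 231 and 314 CPM in S4+S5, and their part in that return was not tested.

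**Figure D5:**
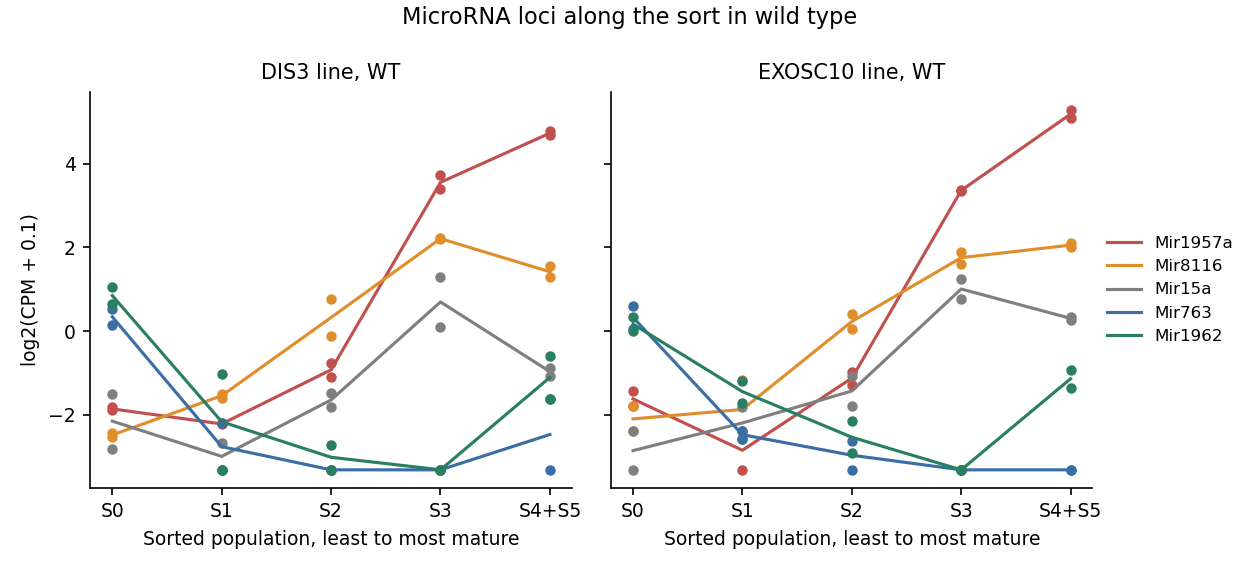
Level of 5 loci, as log2 of CPM plus 0.1, in WT cells of the sorted populations of the DIS3 line (left) and the EXOSC10 line (right); points are the 2 samples of each population, lines join their midpoints, and points at -3.3 are samples with no read. Mir1957a, Mir8116 and Mir15a lie highest in S3 or S4+S5, and Mir763 and Mir1962 in S0.

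The loci that end at a 3' splice site did not move as a group. Their 34 loci summed to 2.87 to 3.87 CPM in DIS3 WT total liver and to 2.67 and 3.44 CPM in dis3 KO, and to 4.09 to 4.71 CPM and 3.59 to 4.44 CPM in the EXOSC10 line, with overlap in both. Of the 2 that passed the filter in DIS3 total liver 1 was called, Mir6951, which was lower, and the 1 tested in EXOSC10 total liver was not called. In the sorted populations 1 to 7 of them passed in each comparison and none was called.

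Genes of microRNA processing and action were read beside the loci from a list of 30. In DIS3 total liver 3 of 30 were called higher and 6 lower, beside 26.5% and 24.2% of all genes, with a median log2 difference of -0.13 against 0.028 over all genes, and in EXOSC10 total liver 6 of 30 higher and 14 lower, beside 31.4% and 31.0%, with a median of -0.15 against 0.001. In the sorted populations 28 to 30 were tested. In dis3 KO 0 to 6 were called higher and 1 to 9 lower, beside 10.3% to 23.4% and 4.80% to 23.7% of all genes. In exs10 KO 1 to 4 were called higher and 2 to 10 lower, beside 7.63% to 16.8% and 4.63% to 17.2%. Ago2, the Argonaute protein that can cut its target and is needed for red cell maturation, was called lower in all 12 comparisons, by 0.41 to 0.83 in the DIS3 line and by 0.30 to 0.85 in the EXOSC10 line, with no overlap of samples in any. Dgcr8 was called lower in 2 comparisons of the DIS3 line and 5 of the EXOSC10 line, and the exporter Xpo5 in 4 and 2. The uridylating enzyme Tut4 and the decay enzyme Dis3l2 were called higher in EXOSC10 total liver and in DIS3 S4+S5, and Dis3l2 was called lower in S1 of both lines.

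The response to the 2 knockouts was compared by an interaction test at 52 loci in total liver, and 1 locus was called, against 1.02% of all genes. It was Mir6236, a locus of chromosome 9 in no other gene. It stood at 212, 243, 292 and 333 CPM in DIS3 WT total liver and at 104 and 118 CPM in dis3 KO (log2 -1.29, SE 0.16, adjusted p = 7.53e-06). In the EXOSC10 line it stood at 246, 336 and 337 CPM in WT against 245, 352 and 361 CPM in KO, with overlap (log2 0.06, adjusted p = 0.719). In S4+S5 it stood at 2473 and 4146 CPM in DIS3 WT and 652 and 1704 CPM in KO (log2 -1.49, SE 0.28, adjusted p = 0.000258), and at 208 and 328 CPM in EXOSC10 WT and 883 and 1945 CPM in KO (log2 2.40, SE 0.41, adjusted p = 0.0171). It was also called lower in DIS3 S1 (-0.72, adjusted p = 0.00737). The lower calls in S1 and S4+S5 were lost with DESeq2, and that in S1 also in a single fit of all sorted samples.

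The share of reads at Gm26917 and Gm42418 moved in the same direction as Mir6236 in DIS3 total liver and in EXOSC10 S4+S5. It was 11.9% to 15.9% in DIS3 WT total liver libraries and 5.3% to 7.1% in dis3 KO, and 14.7% to 19.2% in EXOSC10 WT S4+S5 and 26.0% to 40.9% in exs10 KO. In DIS3 S4+S5 it was 12.9% to 22.5% in WT and 13.2% to 16.3% in KO, with overlap. In DIS3 S1, where Mir6236 was also called lower, the share was 34.8% to 42.1% in WT and 37.3% to 37.9% in KO, again with overlap. Its part in the differences at Mir6236 was not tested. In the sorted populations the interaction was called at 2 of 37 loci in S0 (7.25% of all genes), 0 of 23 in S1 (4.02%), 0 of 17 in S2 (2.22%), 0 of 29 in S3 (1.41%) and 2 of 25 in S4+S5 (7.01%), with 0, 3 and 0 at an unadjusted p under 0.05 in S1, S2 and S3 (edgeR's quasi-likelihood test, the one tool run for this comparison).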

How the data were processed

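Stranded total RNA was sequenced in 76 libraries. The deposited values are whole-number counts of reads per gene, made by the authors with HISAT2 2.1.0 and featureCounts 1.6.4 on GRCm38, per the submitters' processing notes, which also name Subread, R 3.5.1 and DESeq2 1.20.0. Neither the labels nor the file headers state the strand setting or the annotation release. Within a group, libraries whose counts agreed within sampling noise (chi-square per degree of freedom under 1.5 over genes with at least 20 counts, without Gm26917 and Gm42418, in 24 of 84 pairs) were added together and treated as a single sample, so 52 samples remained. Their values of 1.077 to 1.327 stood apart from 2.798 to 20.293 in the other pairs. Each comparison was fitted over all genes with edgeR 4.0.16 (TMM, filterByExpr, quasi-likelihood test) in R 4.3.3, and Benjamini-Hochberg adjustment ran over all genes tested, with a call at an adjusted p under 0.05. The difference between the lines was an interaction term, and WT populations were compared by an F test. The code was tested on simulated data. Counting intervals are exact at 95% and, like the floor of 3 counts, cover counting error only. Alternatives were DESeq2 1.42.0, no filter, no Gm26917 and Gm42418, every library as its own sample, a single fit of all sorted samples, a replicate block and each sample left out. Loci named are the 10 with most counts, up to 8 called loci a comparison with the largest change and no overlap of samples, and members of listed families, beside loci chosen after their values were seen. The members and gene lists were chosen with earlier results of these data known.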

Additional observations from a re-analysis of the deposited data

Results flagged for a closer look

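The difference between KO and WT at Mir6236 was not the same in the 2 lines. The log2 effect in the DIS3 line minus that in the EXOSC10 line was -1.34 in total liver (SE 0.24, adjusted p = 0.00675) and -3.87 in S4+S5 (SE 0.63, adjusted p = 0.00475), by the interaction test of edgeR. In S4+S5 it was lower in 2 of 2 dis3 KO samples and higher in 2 of 2 exs10 KO samples. By the levels given above, the WT samples of the DIS3 line lay far above those of the EXOSC10 line there, while the KO samples of the lines overlapped. The part of the WT levels in this difference between the lines was not tested.

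Mir7655 in S0 had a difference between the lines of 8.48 (adjusted p = 0.039), a fitted value that depends on a group at 0. The exs10 KO samples had 0 reads and the WT samples 0 and 8. Mir1938 in S0 differed by -3.52 (SE 0.79, adjusted p = 0.0182), being lower in dis3 KO and at 2.33 and 4.71 CPM in exs10 KO against 0.921 and 1.26 CPM in WT, where it was not called (log2 1.70, adjusted p = 0.0532). Mir1950, in the kinesin gene Kif20b, differed by -9.29 in S4+S5 (adjusted p = 0.0396), again a fitted value against a group at 0. It had 6 and 7 reads in DIS3 WT and 0 in both KO samples, at least 4.91-fold lower, and 0.525 and 1.82 CPM in exs10 KO against 0.125 and 0.146 CPM in WT (log2 3.00, adjusted p = 0.135).

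Mir496a stood at 0.0821 CPM in 1 WT total liver sample of the DIS3 line, against 0.198 to 0.220 CPM in the other 3, a gap that set it apart from them. It was the only flag among the 44 loci tested for it, where chance flags about 1 in 20 groups.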

How the results depend on the processing

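Counts of called loci moved with the settings. Higher and lower calls are given in turn. In DIS3 total liver 25 and 3 became 12 higher with DESeq2 and 5 lower without the filter, and 9 to 29 and 2 to 3 with 1 sample left out. In DIS3 S0, 4 and 1 became 2 lower without the filter, with every library as its own sample or with the replicate block, 0 lower with DESeq2, and 1 to 7 and 0 to 5 with 1 left out. In DIS3 S1, 0 and 1 became 4 higher without the filter, 2 higher and 0 lower in 1 fit of all sorted samples, 0 lower with DESeq2, 2 lower with every library, and 0 to 3 and 1 to 2 with 1 left out. In DIS3 S2, 0 higher became 5 without the filter, 1 without Gm26917 and Gm42418, 4 in 1 fit, and 0 to 8 and 0 to 2 with 1 left out. In DIS3 S3, 2 and 2 became 5 and 5 without the filter, 1 and 0 with DESeq2, 1 and 1 with every library, 1 lower in 1 fit, and 1 to 3 and 1 to 4 with 1 left out. In DIS3 S4+S5, 5 and 1 became 2 lower without the filter or in 1 fit, 0 lower with DESeq2, and 2 to 8 higher with 1 left out.

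In EXOSC10 total liver 35 and 1 became 3 lower without the filter, 2 with every library, and 31 to 38 and 1 to 2 with 1 left out. In EXOSC10 S0, 0 higher became 1 without the filter or with the replicate block, 2 with every library and 0 to 4 with 1 left out. In S1, 0 higher became 1 with every library, and 0 to 1 and 0 to 1 with 1 left out. In S2, 0 and 1 became 1 and 2 with every library, 2 lower without the filter, 0 lower with DESeq2 or in 1 fit, and 0 to 2 and 0 to 3 with 1 left out. In S3, 0 lower became 1 without the filter or with the replicate block, 2 with every library, and 1 to 2 and 0 to 2 with 1 left out. In S4+S5, 2 and 0 became 7 and 5 in 1 fit, 1 lower with every library, and 1 to 10 and 0 to 6 with 1 left out. Interaction calls became 2 with every library in total liver, 1 without the filter in S1 and S3, 1 with every library in S2, and 4 without the filter and 5 with every library in S4+S5. The 16 loci differing between DIS3 WT populations became 30 without the filter and 20 to 26 with 1 left out. The cause was not tested.

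Of 971 alternatives for 89 results of single loci, 869 left the call as it was, 102 lost it and 0 reversed. Alternatives in which a locus was not tested are not among the 971. Of the 89 results, 50 kept their call in every alternative counted. The replicate numbers did not pair samples (correlations of deviations -0.111 to 0.078), so the block is no stronger test. In DIS3 S1 and EXOSC10 S0 they ran below -0.1, and a crossed replicate block, chosen after seeing the data, gave 2 higher and 1 lower in EXOSC10 S0. Reads were too few for 60 of the 149 loci to be tested in any of the 12 comparisons of KO with WT.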
